A study of Mus musculus with 8 samples.

Results

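The genes examined here encode the mitochondrial respiratory chain, in bone marrow-derived macrophages (BMDM) treated with bilirubin, a breakdown product of heme. Members were taken by symbol: those beginning *Nduf* (complex I), *Sdha* to *Sdhd* (complex II), *Uqcr*, *Cyc1* and *mt-Cytb* (complex III), *Cox4* to *Cox8* and *mt-Co* (complex IV), and *Atp5* and *mt-Atp* (complex V), with *mt-Nd* added to complex I. Symbols ending in -ps were left out. This gave 113 of the 53819 genes in the table, 100 encoded in the nucleus and 13 in the mitochondrial genome. The nuclear ones include 4 that the GENCODE annotation lists as processed pseudogenes, *Ndufa11b*, *Ndufb4c*, *Ndufs6b* and *Cox6c2*, of which only *Ndufb4c* had enough counts to be tested. *Ndufa4* and *Ndufa4l2* were placed in complex IV, where their proteins belong despite their names.

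BMDM were grown from the marrow of 4 female BALB/cJ mice aged 8 weeks, with M-CSF, the growth factor that drives macrophage differentiation, at 25 ng/mL for 5 days. From each mouse, 1 culture then received 2.5 µM bilirubin and 1 received DMSO vehicle, for 48 hours, so the 8 libraries form 4 pairs. All mice and cultures were otherwise of the same kind, and no other agent, allele or strain was compared. The comparison asks how bilirubin altered macrophage gene expression.

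The respiratory chain sits in the inner mitochondrial membrane. Complexes I and II pass electrons from NADH and succinate to coenzyme Q, complex III passes them on to cytochrome c, and complex IV hands them to oxygen. Complexes I, III and IV pump protons as they do so, and complex V (ATP synthase) lets the protons back and makes ATP. Complex II is wholly nuclear-encoded, while the other complexes combine nuclear subunits with a few made from mitochondrial DNA, so that their assembly draws on both genomes. In macrophages the balance between respiration and glycolysis shifts with inflammatory activation.

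The vehicle libraries held 37747315 to 47071714 counts on genes and the bilirubin libraries 34142781 to 41054034. All 8 macrophage markers examined (such as *Csf1r* and *Adgre1*) had enough counts to be tested. Of these 8, 4 rose, against 4.49% of all tested genes. The summed level of the 8 was 24111 to 24451 CPM (counts scaled to a common library size) with vehicle and 28567 to 30656 CPM with bilirubin. Neutrophil markers summed to 11.1 to 13.7 and 19.9 to 32.4 CPM. Only 2 of the 8 neutrophil markers had enough counts to be tested, and 1 of them rose. *Ly6g* and *Camp* were at or under 3 counts in every library. Markers of T and NK cells, B cells, dendritic cells, erythroid cells and mast cells stayed below 0.6 CPM in sum. Stromal markers reached 5.61 CPM. The part of these shifts in the results below was not tested, and in bulk cultures fewer cells of a type and less RNA per cell cannot be told apart.

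Levels are compared between genes only as TPM (an abundance divided by transcript length). Between libraries they are compared as CPM on library sizes scaled by edgeR's TMM method, except where TPM or a share of counts is named. Transcripts of the mitochondrial genome were far above the nuclear ones. The median over the 13 mitochondrial genes was 4950 TPM, against 158.3 TPM over the 90 nuclear members with enough counts to be tested. *mt-Co1*, the catalytic core of complex IV, stood at 12380 ± 527 TPM with vehicle and 12180 ± 715 TPM with bilirubin (SD, n = 4 each). The top nuclear member, *Atp5b*, the catalytic beta subunit of ATP synthase, reached 658 ± 7.75 and 675 ± 32.2 TPM.

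**Figure D1:**
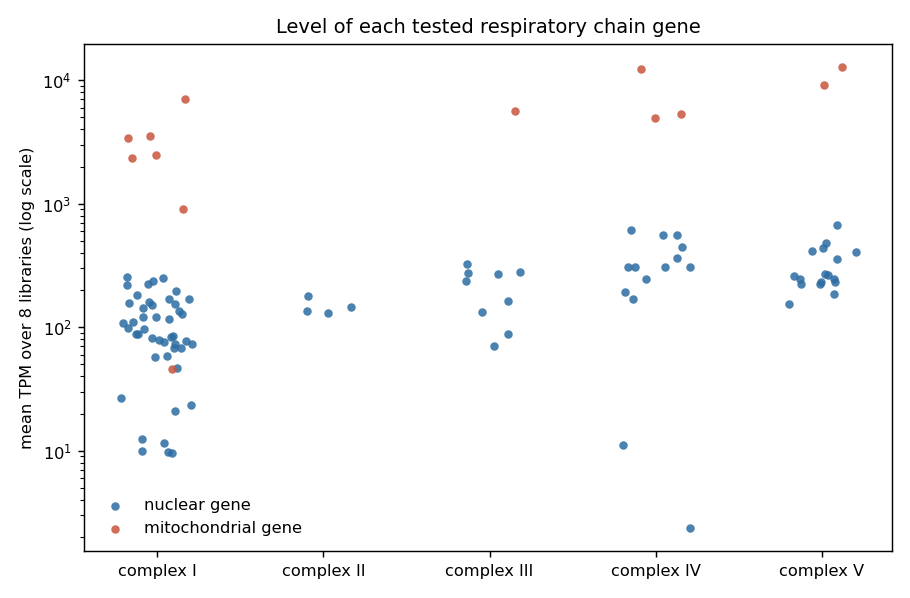
Mean TPM over the 8 libraries (log axis) of the 103 tested respiratory chain genes, by complex, with nuclear and mitochondrial genes in different colours. Mitochondrial genes lie above every nuclear member of their complex, except *mt-Nd6* at 46.1 TPM.

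The order within the mitochondrial genome ran from *mt-Atp8* (12780 TPM as the mean of all libraries) and *mt-Co1* (12280 TPM) through *mt-Atp6* (9133 TPM), *mt-Nd1* (7081 TPM) and *mt-Cytb* (5670 TPM) down to *mt-Nd3* (909 TPM) and *mt-Nd6* (46.1 TPM). *mt-Nd6* is the only protein gene on the light strand of this genome. The first 2 places are not separable, since *mt-Atp8* varied between libraries by an SD of 1576 TPM with vehicle and 2032 TPM with bilirubin. Its TPM also rests on an effective length of only 66 bases.

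Some mitochondrial genes share bases, so their reads cannot be fully told apart. *mt-Atp8* and *mt-Atp6* overlap by 43 bases, at chrM:7927-7969 of GRCm39 on the plus strand, and *mt-Nd4l* and *mt-Nd4* overlap by 7 bases, at chrM:10167-10173. *mt-Nd5* and *mt-Nd6*, on opposite strands, overlap by 14 bases at chrM:13552-13565, and whether the counting used strand is not given in the sources used here. If strand was not used, reads from *mt-Nd5* cannot be told apart from those of *mt-Nd6* where they overlap. The first 2 junctions lie within coding sequence on the same strand. They are shown because the values of these 4 genes are read below, with capitals marking the start codon of the downstream gene and the stop codon of the upstream gene.
mt-Atp8/mt-Atp6 (chrM:7918-7978): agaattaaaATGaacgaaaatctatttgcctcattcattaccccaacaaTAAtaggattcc
mt-Nd4l/mt-Nd4 (chrM:10158-10182): cctactacaATGcTAAaaattattc

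Among tested nuclear members, those of complex IV had a median of 305.9 TPM, complex V 259.1, complex III 235.7, complex II 139.9 and complex I 92.84. The complex I median pools subunits with assembly factors and *Ndufb4c*. Its 30 accessory subunits had a median of 132.6 TPM and its 7 nuclear core subunits 82.24 TPM. *Cox4i1* (613.5 TPM), *Cox6b1* (556.5) and *Cox6a1* (555.6) led complex IV, and *Ndufb8* led the nuclear part of complex I at 255.3 TPM. The 8 *Ndufaf* assembly factors, which help to build complex I without staying in it, ranged from 9.61 to 26.91 TPM, below each of its core and accessory subunits.

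The tissue-specific isoforms of complex IV were low or at 0 in these macrophages. *Cox7a1*, the heart and muscle form, averaged 11.2 TPM against 245.9 TPM for the general form *Cox7a2*. *Cox6a2*, also a muscle form, averaged 2.37 TPM against 555.6 TPM for *Cox6a1*. *Cox4i2*, the lung form of subunit 4, averaged 0.402 TPM, and *Cox7b2*, *Cox8b* and *Cox8c* were listed at 0 in every library. In all, 10 members had too few counts to be tested, 3 of complex I, of which 2 are annotated pseudogenes, and 7 of complex IV, of which 1 is. *Cox6b2* and *Ndufa4l2* were among the others of complex IV.

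The 3 genes for the c subunit of ATP synthase, which make an identical mature protein, were all present. *Atp5g3* averaged 411.7 TPM, *Atp5g2* 230.9 TPM and *Atp5g1* 153.7 TPM.

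Nuclear respiratory genes are classically driven by NRF1, by ETS-family factors (GABP, also called NRF2) and by YY1. RefSeq promoters on GRCm38.p6 (250 bases before to 50 bases after the start) were on hand for 77 of the 100 nuclear members, 82 promoters in all. The core letters of the NRF1 element, GCATGCG, stood in 15.9% of them on either strand, against 4.44% of promoters of protein-coding genes. The ETS letters CCGGAAG were in 23.2% against 11.6%, the YY1 letters AAGATGG in 14.6% against 6.24%, and TATAAA in 9 of the 82 promoters against 12.6%. No matches of different motifs overlapped in these promoters. A match is a description of letters and no proof of binding.

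The 36 tested members with an NRF1, ETS or YY1 match had a median log2 fold change with bilirubin of 0.04, and the 38 without had 0.05. The windows that follow show what the NRF1 letters look like in members whose values are given below, *Atp5l* among them. Capitals mark the match on either strand, with up to 25 bases on each side, all before the start.
Atp5l (chr9:44920952-44920992, minus strand): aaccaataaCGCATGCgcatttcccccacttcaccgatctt
Atp5g2 (chr15:102671057-102671113, minus strand): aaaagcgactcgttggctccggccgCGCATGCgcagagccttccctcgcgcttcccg
Cox6a1 (chr5:115349088-115349144, minus strand): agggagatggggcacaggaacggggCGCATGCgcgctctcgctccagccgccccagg
Sdhb (chr4:140961192-140961248, plus strand): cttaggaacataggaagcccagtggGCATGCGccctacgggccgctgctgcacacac
Ndufaf4 (chr4:24897946-24898002, plus strand): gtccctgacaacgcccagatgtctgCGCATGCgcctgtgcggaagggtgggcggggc

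Transcripts of the respiratory chain stayed close to their vehicle levels with bilirubin. Of the 103 tested members, 2 rose and 0 fell (edgeR quasi-likelihood fit on treatment with the mouse as a block, Benjamini-Hochberg adjusted p under 0.05 over 13722 genes). Over all tested genes, 7.53% passed, 4.49% as rises and 3.04% as falls, so the share of members called was below the background. At an unadjusted p under 0.05, 23 members were higher (10.8% of all genes were) and 4 were lower (10.0%), and DESeq2 and limma voom each also called 2 rises and 0 falls. The 95% interval of the log2 fold change lay wholly within 0.25 of 0 for 88 of the 103 members (85.4%), against 47.6% of all tested genes. Only *Cox7a1* and *Cox6a2*, both at few counts, had a fitted change above 0.25 in size, or 1.94% of members against 20.1% of all genes.

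The small differences leaned upwards in the nuclear members. A fitted log2 fold change above 0 was found for 74 of the 103 members (71.8%), against 49.3% of all genes. Members higher with bilirubin in all 4 mice numbered 32 (31.1%), against 14.5%, and all 32 were nuclear, while 5 (4.85%) were lower in all 4 mice, against 13.9%. Vehicle and bilirubin libraries did not overlap for 7 of the 103 members with bilirubin higher, a share close to the 5.93% of all genes. They did not overlap for 1 of the 103 with vehicle higher, against 4.69% of all genes. The 7 included *Cox5a*, *Cox7a2l*, *Atp5a1* and *Ndufv1*, and the 1 was *Cox7a1*. Without mouse 1 the number of rises was 6 of 103, while 13.9% of all tested genes passed in either direction. Without mouse 2, 3 or 4 it was 0, while 4.58%, 2.75% and 3.21% of all tested genes passed.

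**Figure D2:**
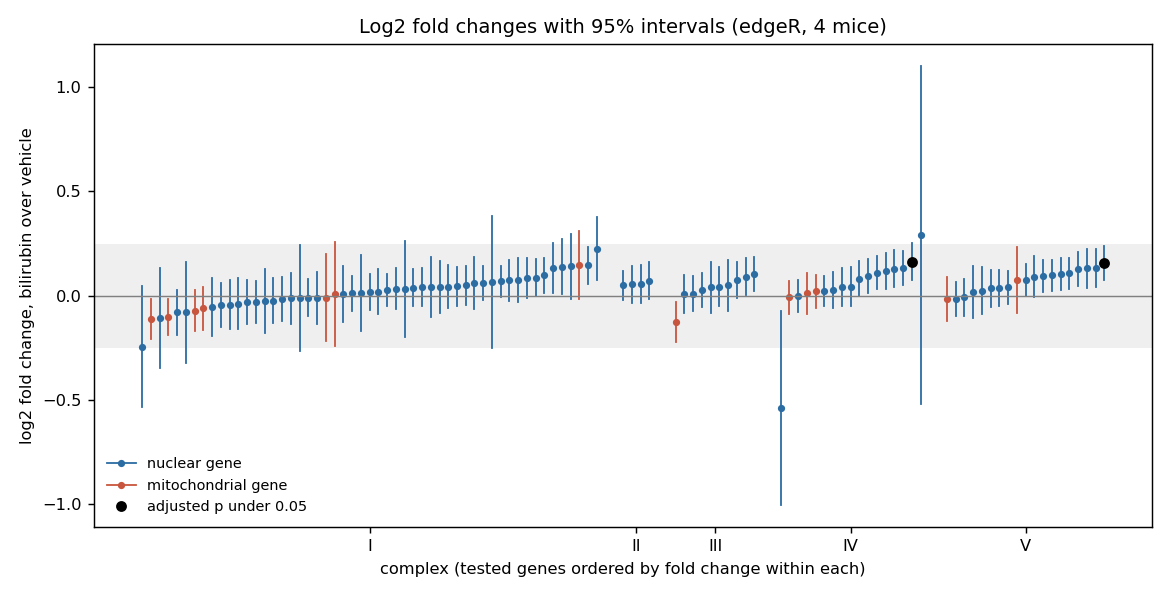
Log2 fold change of each tested member (bilirubin over vehicle, points) with its 95% interval (lines) from edgeR, ordered within complexes I to V, where the grey band spans 0.25 either side of 0. The black points are *Cox5a* and *Atp5l*, the 2 members past the threshold, and the intervals of 88 of 103 members lie within the band.

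The nuclear members had a median log2 fold change of 0.04, and the median difference was above 0 in each mouse, at 0.03, 0.03, 0.05 and 0.07 for mice 1 to 4. The mitochondrial members had a median of -0.01, with medians of -0.09, 0.01, -0.14 and 0.09 in the same mice. Over all tested genes the median was -0.002. The nuclear median turned to -0.005 when a trend along transcript length was removed from each library. With the same trend removed, the mitochondrial median was -0.069 and that of all tested genes was -0.012. Nuclear members had a median effective length of 540 bases and mitochondrial members 615, against 2082 over all tested genes. The part of length in these medians was not tested. On library size alone the nuclear median was 0.02 and that of all genes was -0.03.

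**Figure D3:**
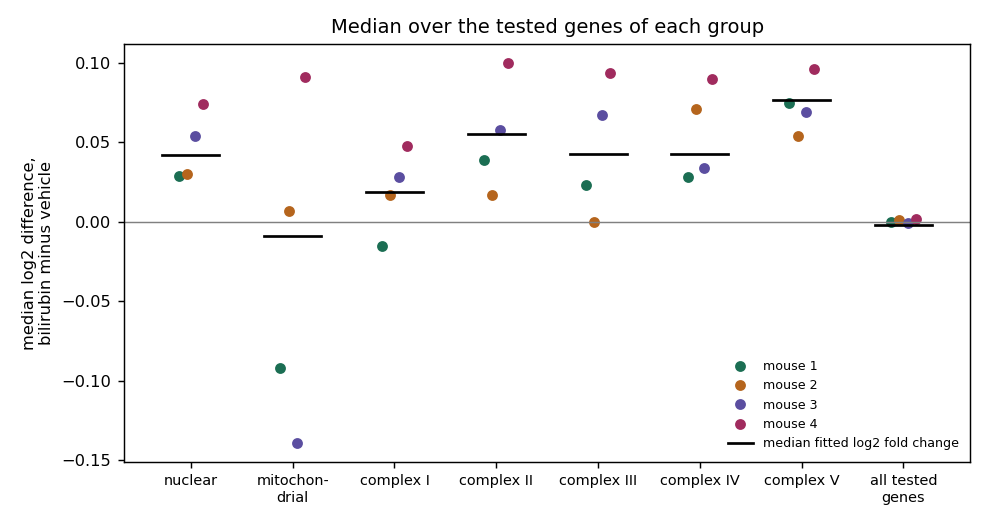
Median log2 difference between bilirubin and vehicle over the tested genes of each group, in each mouse (points), with the median fitted log2 fold change (bars). Nuclear members lie above 0 in each of the 4 mice, mitochondrial members lie on both sides of 0, and complex V is highest among the complexes at 0.08.

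ATP synthase held the largest median of the 5 complexes. Over the 19 genes of complex V it was 0.08, with 16 above 0, and it was 0.04 when the length trend was removed. *Atp5l*, for the membrane subunit g, lies at chr9:44800118-44832055 of GRCm39 on the minus strand. Its level with vehicle was 109, 112, 112 and 122 CPM in mice 1 to 4, and with bilirubin it was 117, 122, 130 and 138 CPM. Each bilirubin culture was above its own vehicle culture, although the ranges of the groups overlapped.

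*Atp5l* rose by 0.16 ± 0.04 on the log2 scale (SE, edgeR adjusted p = 0.034, n = 4 pairs), with a 95% interval of 0.08 to 0.24. It passed in 9 of 16 alternative analyses. Its adjusted p was 0.175 without the mouse in the model, 0.164 with the length trend removed, and 0.106, 0.219 and 0.186 without mouse 2, 3 or 4. Without mouse 1 it was 0.00749.

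The catalytic F1 part of the enzyme held its values in a narrow range. All 5 of its genes, *Atp5a1*, *Atp5b*, *Atp5c1*, *Atp5d* and *Atp5e*, were higher with bilirubin in all 4 mice, with log2 fold changes of 0.08 to 0.13 and unadjusted p under 0.05, and none passed after adjustment. These 5 were singled out after their values were seen. *Atp5b* was at 621, 639, 664 and 665 CPM with vehicle and 655, 660, 729 and 727 CPM with bilirubin. Its change of 0.10 ± 0.03 had an edgeR adjusted p of 0.123.

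The c ring and the stalk gave similar values. The c subunit genes *Atp5g1*, *Atp5g2* and *Atp5g3* had log2 fold changes of 0.13, 0.04 and 0.09, with edgeR adjusted p of 0.0985, 0.689 and 0.286. The 4 genes of the peripheral stalk, which holds the head still, had a median of 0.07. Besides *Atp5l*, the other membrane subunits lay between -0.02 for *Atp5j2* and 0.02 for *Atp5md*. In the mitochondrial genome, *mt-Atp6* had a log2 fold change of -0.02 and *mt-Atp8* of 0.08, with edgeR adjusted p of 0.889 and 0.614.

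*Atpif1* encodes the inhibitor that stops ATP synthase from running backwards, and its symbol falls outside the naming rule. It was at 112, 119, 125 and 132 CPM with vehicle and 126, 139, 143 and 152 CPM with bilirubin in mice 1 to 4. All 4 pairs were higher with bilirubin, by 0.16 to 0.22. It rose by 0.19 ± 0.03 on the log2 scale, with an edgeR adjusted p of 0.00903, which is lower than for any respiratory chain member. That value was 0.135 without the mouse in the model and between 0.0604 and 0.0816 without mouse 2, 3 or 4, and *Atpif1* passed in 12 of 16 alternative analyses.

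**Figure D4:**
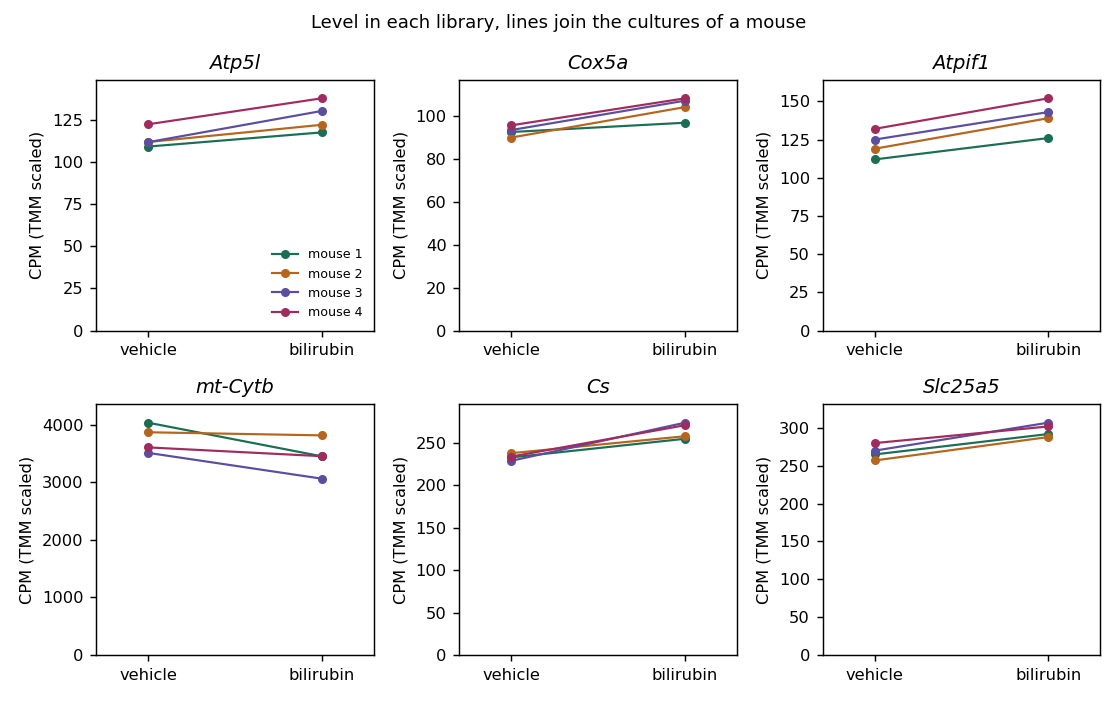
TMM-scaled CPM (linear axes from 0) in each library for 6 genes, with a line joining the vehicle and bilirubin cultures of each mouse. The lines of *Atp5l*, *Cox5a*, *Atpif1*, *Cs* and *Slc25a5* slope upwards in all 4 mice and those of *mt-Cytb* downwards.

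Complex IV, cytochrome c oxidase, gave the other rise. *Cox5a*, a nuclear subunit on the matrix side of the complex, lies at chr9:57428456-57440678 of GRCm39 on the plus strand. It was at 92.6, 90.0, 93.5 and 95.7 CPM with vehicle and at 96.9, 104.2, 107 and 108 CPM with bilirubin. The groups did not overlap, and mouse 1 showed the smallest difference, 0.07 on the log2 scale against 0.18 to 0.21 in the others.

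*Cox5a* rose by 0.16 ± 0.04 on the log2 scale (edgeR adjusted p = 0.0385, 95% interval 0.08 to 0.25). It passed in 8 of 16 alternative analyses. Its adjusted p was 0.0679 without the mouse in the model, 0.132 with the length trend removed, and 0.168, 0.225 and 0.194 without mouse 2, 3 or 4, and without mouse 1 it was 0.00309. Its partner subunit *Cox5b* had a log2 fold change of 0.04 (adjusted p = 0.643 in the same edgeR test).

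The other nuclear subunits of complex IV were mostly above 0 without passing. Of its 11 accessory subunits, 10 had a log2 fold change above 0 and the median was 0.08, while the median of the whole complex, 0.04, turned to -0.002 with the length trend removed. *Cox7b* (0.13), *Cox6b1* (0.12) and *Cox7c* (0.11) had edgeR adjusted p of 0.0666, 0.107 and 0.106, and *Cox4i1* and *Cox6a1* stood at 0.02 and 0.00. *Cox7a2l*, which helps complexes III and IV join into supercomplexes, was at 108, 108, 111 and 108 CPM with vehicle and 122, 116, 114 and 124 CPM with bilirubin. These values did not overlap, and the edgeR adjusted p was 0.0942. The 3 mitochondrial subunits, *mt-Co1*, *mt-Co2* and *mt-Co3*, had log2 fold changes of 0.02, 0.01 and -0.01.

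*Cox7a1* had a negative log2 fold change at a low level. It was at 2.10, 1.96, 1.72 and 2.21 CPM with vehicle and 1.24, 1.16, 1.65 and 1.47 CPM with bilirubin, from 42 to 100 counts in a library. The groups did not overlap, though in mouse 3 the difference was only -0.06. Its log2 fold change of -0.54 ± 0.20 had an edgeR adjusted p of 0.176 and a 95% interval of -1.002 to -0.07. The general form *Cox7a2* was at 0.04 (edgeR adjusted p = 0.628). For *Cox6a2*, with 10 to 55 counts, the interval ran from -0.52 to 1.10.

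Complex III held nuclear and mitochondrial genes with values of opposite sign. Its 9 nuclear genes all had log2 fold changes above 0, from 0.01 to 0.10, led by *Uqcrh*, the hinge subunit, at 0.10 (edgeR adjusted p = 0.142) and *Cyc1*, cytochrome c1, at 0.09 (edgeR adjusted p = 0.225). Its median of 0.04 turned to -0.01 with the length trend removed. Its mitochondrial gene *mt-Cytb*, for cytochrome b (chrM:14145-15288), was at 4040, 3873, 3515 and 3610 CPM with vehicle. With bilirubin it was at 3455, 3819, 3066 and 3457 CPM.

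*mt-Cytb* was lower in all 4 mice, by -0.23, -0.02, -0.20 and -0.06, although the groups overlapped. Its log2 fold change was -0.13 ± 0.04 (edgeR adjusted p = 0.123, 95% interval -0.22 to -0.03). It passed as a fall in 3 of 16 alternative analyses, with adjusted p of 0.0412 on library size alone, 0.000988 without a filter on low counts and 0.0416 with the length trend removed. Summed over complex III, TPM went from 7833 ± 395 to 7176 ± 428 (SD, n = 4 each), and was lower in each of the 4 mice. The sum over the 9 nuclear genes was 1827 ± 51.7 and 1841 ± 68.5 TPM, so the difference lay in *mt-Cytb*.

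Complex I, the largest, had 53 tested genes, 0 past the threshold and a median log2 fold change of 0.02. That median turned to -0.01 on library size alone and to -0.04 with the length trend removed. Its 7 nuclear core subunits, which carry the redox centres, had a median of 0.06, and *Ndufv1*, which binds NADH, was highest. *Ndufv1* was at 51.4, 53.9, 53.6 and 55.1 CPM with vehicle and 59.0, 56.8, 60.0 and 60.9 CPM with bilirubin. The groups did not overlap, and the log2 fold change of 0.15 ± 0.04 had an edgeR adjusted p of 0.0636.

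The 30 accessory subunits of complex I had a median of 0.03, with 20 above 0. *Ndufab1*, the acyl carrier protein, was at -0.03 (edgeR adjusted p = 0.773), and *Ndufc2* was at 0.08 (edgeR adjusted p = 0.412). The 8 assembly factors had a median of 0.003, and 2 of their intervals lay within 0.25 of 0. *Ndufaf4* was the highest of complex I at 0.22 ± 0.07, with levels of 11.5, 11.3, 12.7 and 13.3 CPM in vehicle and 12.5, 13.5, 16.1 and 14.9 CPM in bilirubin cultures. The groups overlapped, and the edgeR adjusted p was 0.0879. The lowest value of the complex was that of *Ndufb4c*, annotated as a processed pseudogene, at -0.25 ± 0.13 with an edgeR adjusted p of 0.331.

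The 7 mitochondrial genes of complex I had a median log2 fold change of -0.06. *mt-Nd4* was at 3103, 2935, 2786 and 2785 CPM with vehicle and 2704, 2873, 2436 and 2745 CPM with bilirubin, and *mt-Nd2* was at 2075, 2051, 1870 and 1929 CPM and then 1793, 1953, 1726 and 1915 CPM. Each was lower in all 4 mice, with overlapping groups and almost no difference in mouse 4. Their log2 fold changes were -0.11 ± 0.04 and -0.10 ± 0.04, with edgeR adjusted p of 0.171 and 0.176. Without a filter on low counts both passed, with adjusted p of 0.00731 and 0.0232, and with the length trend removed *mt-Nd2* passed with 0.0496. *mt-Nd1* and *mt-Nd5* were at -0.06 and -0.07 (edgeR adjusted p = 0.527 and 0.411).

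Complex II, which is also the succinate dehydrogenase of the tricarboxylic acid cycle, was even. *Sdha*, *Sdhb*, *Sdhc* and *Sdhd* had log2 fold changes of 0.05, 0.07, 0.05 and 0.06, and their edgeR adjusted p ran from 0.352 to 0.501. *Sdha*, the flavoprotein, was at 255, 247, 236 and 236 CPM with vehicle and at 261, 255, 244 and 247 CPM with bilirubin. All intervals of the 4 genes lay within 0.25 of 0.

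The difference between the cultures of a mouse varied more across mice for mitochondrial genes than for nuclear ones. With 1 culture per treatment and mouse, a varying response and variation between cultures or libraries cannot be told apart. The SD between mice of the log2 difference had a median of 0.11 over the 13 mitochondrial genes, 0.07 over the 90 nuclear ones and 0.14 over all tested genes. None of the 13 was higher in all 4 mice, and *mt-Cytb*, *mt-Nd4* and *mt-Nd2* were lower in all. The 4 genes shorter than 600 bases, *mt-Atp8*, *mt-Nd3*, *mt-Nd4l* and *mt-Nd6*, had median differences of 0.14, 0.03, -0.16 and 0.36 in mice 1 to 4. The 9 longer genes had medians of -0.14, 0.00, -0.12 and 0.05.

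Mouse 4 thus held the highest difference for each of the short genes, which rests on 1 pair of cultures. *mt-Nd3* was at 88.6, 115, 114 and 103.5 CPM with vehicle and 107, 116, 108 and 134 CPM with bilirubin. Its log2 fold change was 0.15 ± 0.07 (edgeR adjusted p = 0.303). *mt-Nd6* was at 9.04, 10.8, 11.2 and 10.9 CPM and then 9.61, 8.97, 10.0 and 14.0 CPM, a log2 fold change of 0.01 ± 0.11 (edgeR adjusted p = 0.983). *mt-Nd4l* was at -0.01 ± 0.09 (edgeR adjusted p = 0.977). Of the 13 intervals, 11 lay within 0.25 of 0, and the other two were those of *mt-Nd3* and *mt-Nd6*.

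**Figure D5:**
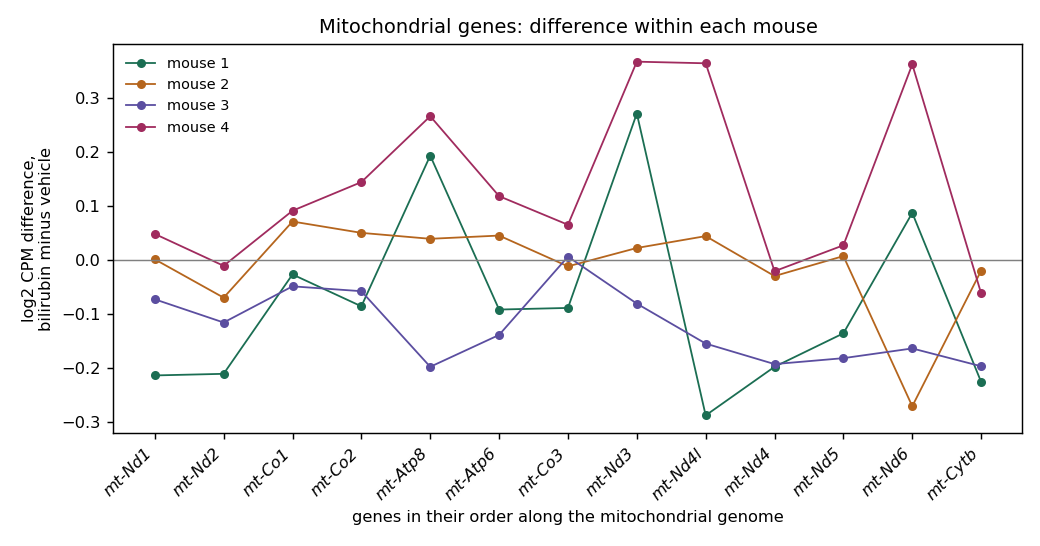
Log2 CPM difference between the bilirubin and vehicle culture of each mouse for the 13 mitochondrial genes, in their order along the mitochondrial genome, with a line for each mouse to guide the eye. *mt-Nd2*, *mt-Nd4* and *mt-Cytb* lie below 0 in all 4 mice, and mouse 4 reaches 0.36 or 0.37 at *mt-Nd3*, *mt-Nd4l* and *mt-Nd6*.

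The balance of the genomes was also read from sums. The 13 mitochondrial genes took 3.39 ± 0.13% of all gene counts with vehicle and 3.26 ± 0.17% with bilirubin (SD, n = 4 each), and the 100 nuclear members took 0.699 ± 0.025% and 0.717 ± 0.025%. The ratio of mitochondrial to nuclear counts was 5.26, 5.03, 4.66 and 4.51 with vehicle and 4.67, 4.94, 4.13 and 4.44 with bilirubin. It was lower in all 4 mice, with a mean log2 difference of -0.10 ± 0.09 (SD), and the groups overlapped. The same ratio of summed TPM was lower in mice 1 to 3 and higher in mouse 4, at 0.03. In TMM-scaled CPM, the summed mitochondrial level had log2 ratios of -0.114, 0.022, -0.102 and 0.06 in mice 1 to 4. The summed nuclear level had 0.056, 0.048, 0.071 and 0.084.

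Genes around the respiratory chain were taken from lists. In the tricarboxylic acid cycle and pyruvate dehydrogenase, which feed the chain, 1 of 17 genes rose and 0 fell. Over all tested genes, 4.49% rose and 3.04% fell. Log2 fold changes were above 0 for 16 of the 17, against 49.3% of all genes, and the median of the list was 0.07. *Cs*, for citrate synthase, the entry step of the cycle, was at 233, 238, 229 and 234 CPM with vehicle and 255, 258, 274 and 271 CPM with bilirubin. The groups did not overlap, and *Cs* rose by 0.18 ± 0.04 on the log2 scale (edgeR adjusted p = 0.0205). It passed in 12 of 16 alternative analyses, and the adjusted p was 0.0575, 0.16 and 0.146 without mouse 2, 3 or 4.

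Among 7 genes of inner membrane exchange and the outer membrane channels, 1 rose and 0 fell, against 4.49% and 3.04% of all tested genes. *Slc25a5*, the adenine nucleotide carrier that trades ADP for the ATP made by complex V, was at 265, 257, 270 and 280 CPM with vehicle and 292, 288, 307 and 302 CPM with bilirubin. The groups did not overlap, and the gene rose by 0.15 ± 0.03 (edgeR adjusted p = 0.0256). It passed in 9 of 16 alternative analyses, and the adjusted p was 0.0716 without the mouse in the model, 0.0932 with the length trend removed, and 0.122, 0.18 and 0.11 without mouse 2, 3 or 4. The related carrier *Slc25a4* was at 0.06 (edgeR adjusted p = 0.438).

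No gene passed in the remaining lists, while 7.53% of all tested genes did. At an unadjusted p under 0.05 by edgeR, 10.8% of all tested genes were higher and 10.0% were lower. Of 48 tested assembly factors named outside the rule, 0 rose and 0 fell by edgeR, with 1 higher and 1 lower at an unadjusted p under 0.05 and a median of 0.02. Of 14 genes of coenzyme Q synthesis and cytochrome c, 0 passed and 2 were higher at that unadjusted p, and *Coq8a* had the largest value, 0.79 ± 0.23 from 1.12 to 1.99 CPM (edgeR adjusted p = 0.0799). Of 23 genes that maintain and express mitochondrial DNA, 0 passed, with 3 higher and 2 lower at the unadjusted p, and *Tfam*, which packages that DNA, was at -0.05 (edgeR adjusted p = 0.679). Of 8 nuclear regulators of respiratory genes, 0 passed and 1 was higher at the unadjusted p. That was the coactivator *Ppargc1b*, at 0.24 ± 0.09 (edgeR adjusted p = 0.166), while *Nrf1*, *Gabpa* and *Esrra* were at -0.04, 0.05 and 0.03.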

How the data were processed

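Bulk RNA of 4 vehicle and 4 bilirubin BMDM cultures was sequenced from poly(A)-selected libraries. The authors trimmed reads with Trim Galore 0.6.7 and Cutadapt 3.4, aligned them with STAR 2.7.9a to GRCm39, quantified transcripts with Salmon 1.10.1 and summed them with tximport. The authors deposited a gene table of estimated counts (expected counts) without any scaling, and a file per library with TPM, estimated counts and effective length for 142434 transcripts. Effective length is a score in bases that the authors' Salmon run computed before deposit.

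Rounded counts went into edgeR 4.0.16 under R 4.3.3, with filterByExpr (at least 10 counts, 15 in total), TMM scaling, mouse and treatment as terms, and Benjamini-Hochberg adjustment over 13722 genes at 0.05. SE was derived as the fold change over the root of F, 95% intervals used the t distribution, and log2 CPM a prior count of 2. Gene TPM is the sum of transcript TPM. Cultures were paired because the labels give a mouse pair. Deviations from the group means correlated at 0.108, 0.134, 0.108 and -0.005 within mice 1 to 4, against a mean of -0.028 between mice. Alternatives were DESeq2 1.42.0, limma 3.58.1 (voom), no mouse term, other scalings and filters, a transcript length offset, removal of a transcript length trend, added pseudogene counts, each mouse left out, and, chosen after seeing the data, removal of a GC trend.

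Members, lists and alternatives were chosen with earlier results of these data known. Named genes were the mitochondrial genes, complex II, members past the threshold, each complex's extremes and highest level, tissue isoforms and c subunit genes, *Atpif1*, and list genes past the threshold. Others (*Ndufv1*, *Atp5d* and further genes outside this rule) were named after their values were seen. Gene positions are from GENCODE on GRCm39 and promoters from RefSeq on GRCm38.p6. The symbol *Atp5o* stands for more than 1 gene ID. Near-identical copies, such as processed pseudogenes, can share reads with members. Where a group's spread is given, it is the SD over mice. The result of 1 member is not reported here.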

Additional observations from a re-analysis of the deposited data

Results flagged for a closer look

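In 78 groups of 4 libraries examined, 3 held a library far from the other three, where chance gives about 1 in 20. *mt-Atp8* was at 738 CPM in the bilirubin culture of mouse 4 against 497 to 534 CPM in the other bilirubin cultures. *Uqcrh* was at 60.1 CPM in the vehicle culture of mouse 1 against 67.8 to 68.8 CPM in the other vehicle cultures. *Cox7a2l* was at 111 CPM in the vehicle culture of mouse 3 against 108 CPM in the others.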

How the results depend on the processing

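Members past the threshold numbered 2 in 7 of 16 alternatives, though with the length trend removed they were *mt-Cytb* and *mt-Nd2*, both falls. Without the mouse in the model, that is without the pairing, the number was 0. It was 1 on library size alone (*mt-Cytb*, a fall) and 5 without a filter on low counts (*Atp5l* and *Cox5a* with the falls *mt-Cytb*, *mt-Nd4* and *mt-Nd2*). It was 0 with a transcript length offset, 1 with a GC trend removed (*Atp5l*), and 0 to 6 with a mouse left out. Over all tested genes, 5.0% passed without the mouse in the model, 7.89% on library size alone and 6.5% without a filter. That share was 4.22% with the length offset, 7.4% with the length trend removed and 7.44% with the GC trend removed. With a mouse left out it ran from 2.75% to 13.9%. Median log2 fold changes moved beyond the spread between mice on library size alone (nuclear 0.016, complex I -0.007, complex V 0.050) and with the length trend removed (nuclear -0.005, complex I -0.035, complex III -0.010, complex IV -0.002, complex V 0.039). The summed nuclear level had a log2 ratio of 0.012 in TPM and 0.065 in TMM-scaled CPM. The cause of these shifts was not tested. Among 639 values of 40 named genes, 597 stayed on their side of the threshold, 34 lost a call, 8 gained 1 and 0 reversed. Where neither fit called the gene, the sign differed from the main fit in 28 values. With 4 pairs, the median SE over the members was 0.041 and their median log2 fold change was 0.04. The 2 members called in the main fit stood at 0.156 and 0.163, so most changes seen here were smaller than those the test called.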

Other observations

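The ribosomal RNA genes of the mitochondrial genome lie outside the naming rule and differed from each other. *mt-Rnr1*, the small-subunit RNA, was at 126, 132, 108 and 114 CPM with vehicle and 137, 151, 136 and 137 CPM with bilirubin in mice 1 to 4. It was higher in all 4 mice and rose by 0.23 ± 0.04 on the log2 scale (edgeR adjusted p = 0.0145), passing in 12 of 16 alternative analyses, with adjusted p of 0.077 without the mouse in the model and of 0.0604, 0.121 and 0.106 without mouse 2, 3 or 4. *mt-Rnr2*, the large-subunit RNA, had a log2 fold change of -0.08 ± 0.04 (edgeR adjusted p = 0.314). The libraries were poly(A)-selected, and the difference between the genes was not tested. Among the 14 symbols ending in -ps that were left out, *Ndufa12-ps* had the most reads, 169 to 205 counts in a library, with a log2 fold change of 0.27 ± 0.12 (edgeR adjusted p = 0.233).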
